A study of Homo sapiens with 58 samples.

Results

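NORAD and OIP5-AS1 are long noncoding RNAs, described here by the HuR-crosslinked RNA tags that fall in their peaks. Members were taken by gene name from the deposited table of peaks after repeated lines were dropped, which gave 39 of 387214 peaks, 13 named NORAD and 26 named OIP5-AS1. Every peak was 20 bases wide. The study was HuR CLIP-seq, in which ultraviolet light fixes the RNA-binding protein HuR (gene ELAVL1) to RNA in the cell, HuR is pulled down with an antibody, and the attached RNA is sequenced. All 58 libraries came from Huh-7.5, a human hepatocellular carcinoma line. Unmodified (WT) cells, in which no labelling reaction was run, were separated into nuclear and cytoplasmic fractions, with 3 libraries each for mock and for sodium arsenite treatment. Arsenite, an oxidative stressor that halts translation and makes stress granules form, was given at 0.5 mM for 45 min. The other cells expressed the peroxidase APEX fused to a nuclear localisation signal (APEX-NLS), to a nuclear export signal (APEX-NES) or to G3BP1, a protein of stress granules (APEX-G3BP1), and all of them went through the biotin labelling reaction. From these lines came 17 input libraries (HuR pulldown alone) and 29 enriched libraries (HuR pulldown followed by capture of biotinylated protein), again mock or arsenite. The mock and arsenite inputs numbered 2 and 2 for NLS, 2 and 2 for NES, and 4 and 5 for G3BP, and the enriched libraries 4 and 4, 4 and 4, and 6 and 7. How the APEX constructs were expressed, and whether each line was 1 clone, was not given in the sources used here.

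HuR binds AU-rich and U-rich stretches, is mostly nuclear at rest, shuttles to the cytoplasm, and is known for stabilising the messages it binds. NORAD is an abundant, stable, largely cytoplasmic RNA that holds many binding sites for Pumilio proteins and limits their action on messages whose products keep chromosomes intact. OIP5-AS1, also known as cyrano, is a conserved RNA with a site for the microRNA miR-7, has been described as a sponge for HuR, and is transcribed from the strand opposite the gene OIP5.

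Depth set what could be resolved. Between 235471 and 673322 tags lay in peaks in each of the 12 fraction libraries, 1353 to 484305 in an input and 519 to 86419 in an enriched library, and 16 libraries had under 10000. Of the liver markers, 5 of 7 had peaks (APOA1 and TTR had none), and their summed level was 1069 to 1154 CPM (tags per 1000000 of a library total, as used throughout) in the nuclear mock libraries, 625 to 656 in nuclear arsenite, 1730 to 2466 in cytoplasmic mock and 891 to 1004 in cytoplasmic arsenite. Of the leukocyte markers PTPRC, LYZ and CD3E, the last had no peak, and their summed level was at most 21.1 CPM in any fraction library. In 4 enriched groups 1 pair of libraries of library set JL0388 did not differ detectably beyond the sampling noise of their tags (chi-square of 1.07 to 1.09 per degree of freedom over their 500 highest peaks, p of 0.059 to 0.112 with tags permuted between the libraries), and each such pair was counted as 1 sample in a mean ± SD. A pair of G3BP enriched mock libraries of the same set (3 and 4) did not differ either (0.976 per degree of freedom, permutation p = 0.79), but was kept as 2 samples, because another pair of that group, thinned to the same few tags, did not differ detectably. Nothing in the labels says that replicates came from separate cultures, so p-values measure the spread between these libraries, which may be technical. CLIP tags rise with the amount of an RNA as well as with how much of it HuR holds, and these cannot be told apart here, since no RNA abundance was measured in the files used.

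The NORAD peaks formed clusters at either side of an empty stretch. NORAD (ENSG00000260032, a lncRNA on the minus strand) spans chr20:36045618-36050960 in RefSeq on GRCh38.p14, 5343 bases. Its 8 upstream peaks lay between 36048586 and 36049770 and held 18.5% of its 1452 fraction tags. Its 5 downstream peaks lay between 36045666 and 36046425 and held 81.5%. No peak was called in the 2161 bases between them. A single peak at chr20:36045886-36045906, 278 bases from the 3′ end of the RefSeq gene, held 1065 of the 1452 fraction tags (73.3%). The next peak, at chr20:36049671-36049691 and 1279 bases from the 5′ start, held 80 (5.51%). The others held 8 to 43 tags each.

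In resting cells NORAD took a larger share of the HuR tags of the cytoplasmic than of the nuclear fraction, and after arsenite its level in the nuclear fraction lay in the range of the cytoplasmic libraries. Summed over its 13 peaks, NORAD stood at 29.1, 30.0 and 25.1 CPM in the nuclear mock libraries and at 111.7, 157.9 and 154.0 in the cytoplasmic mock libraries. After arsenite the nuclear libraries held 129.7, 136.8 and 108.3, and the cytoplasmic libraries 116.2, 108.0 and 109.9. The 3 nuclear mock libraries were the lowest of the 12, with no overlap with any other group, while the ranges of the other 3 groups overlapped. In order of their means, the groups were cytoplasmic mock (141.2 ± 25.6, SD, n = 3), nuclear arsenite (124.9 ± 14.8), cytoplasmic arsenite (111.4 ± 4.31) and nuclear mock (28.1 ± 2.61), and neighbours among the first 3 did not differ beyond their spread.

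**Figure D1:**
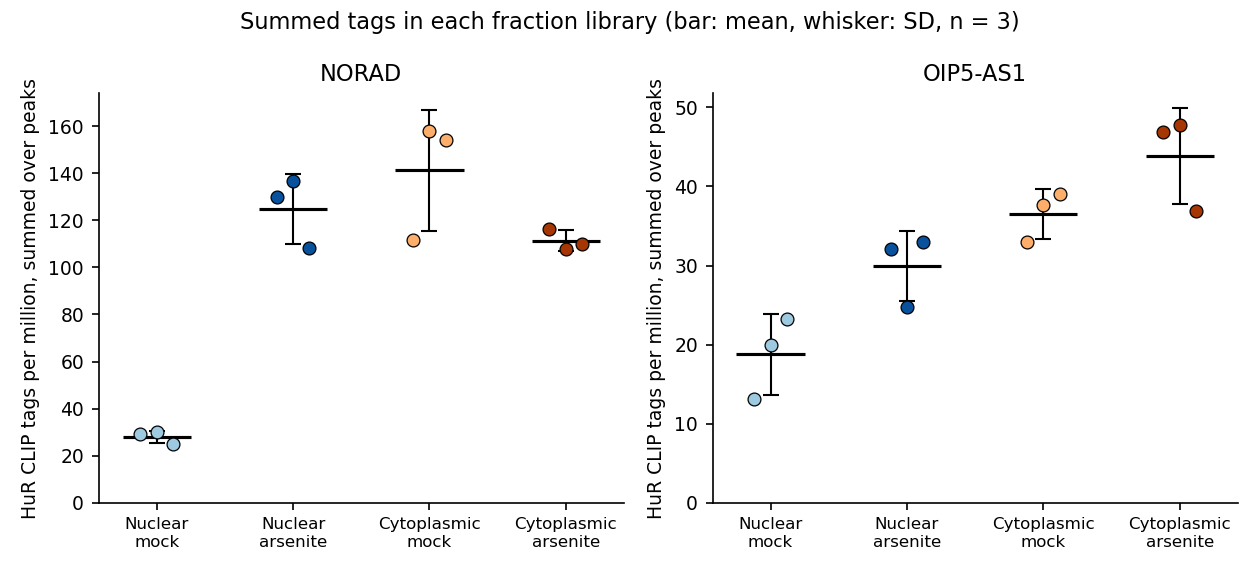
Each point is 1 fraction library, the line is the group mean and the whisker the SD (n = 3), with HuR CLIP CPM summed over a gene's peaks on the vertical axis, which differs between the panels. NORAD sat between 25.1 and 30.0 in the nuclear mock libraries and above 108 in all others, while OIP5-AS1 ran from 13.1 in a nuclear mock library to 47.8 in a cytoplasmic arsenite library.

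The difference between fractions under mock was 5.03-fold in favour of the cytoplasm (ratio of means). By limma on log2 values with Benjamini-Hochberg adjustment over all genes, nuclear minus cytoplasmic was -2.23 ± 0.17 (SE) on the log2 scale with an adjusted p of 1.5e-07. Called genes made up 32.2% of the 10637 tested in that comparison, and NORAD held the 210th lowest difference among them. Under arsenite the same contrast was 0.16 ± 0.11 with an adjusted p of 0.47 by limma, where 8.07% of genes were called. NORAD did not pass the test there, which does not show that the fractions were alike.

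Within the nuclear fraction NORAD rose 4.45-fold with arsenite (ratio of means). The log2 difference was 2.06 ± 0.14 and the adjusted p by limma 7.8e-09, the 24th highest of 10799 genes tested, of which 7.84% were called. In the cytoplasmic fraction the change was -0.32 ± 0.15 with an adjusted p of 0.14 by limma, in a comparison where 20.1% of genes were called. Without cytoplasmic mock library 1, the lowest of its group, that change was -0.48 with an adjusted p of 0.010. The response to arsenite differed between the fractions: the interaction term of the limma fit was 2.38 ± 0.21 on the log2 scale with an adjusted p of 1.4e-12, the 51st highest of 12629 genes, against 13.5% of genes called.

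The fractions were checked on RNAs known to stay in the nucleus. NEAT1, the scaffold of paraspeckles, was higher in the nuclear fraction, by 1.71 ± 0.12 on the log2 scale under mock (limma, adjusted p = 6.0e-08) and by 1.20 ± 0.11 under arsenite (adjusted p = 1.3e-08). MALAT1, a nuclear speckle RNA, stood at 2561 ± 198 CPM in nuclear mock and 2394 ± 286 in cytoplasmic mock (limma, adjusted p = 0.50). The part that nuclear RNA in the cytoplasmic libraries has in the fraction comparisons was not tested. With arsenite NEAT1 rose in the nuclear fraction by 0.37 ± 0.10 (limma, adjusted p = 0.027), where NORAD had 2.06, and in the cytoplasmic fraction by 0.87 ± 0.14 (adjusted p = 0.00053), from 125.2 ± 11.6 to 232.3 ± 42.2 CPM (SD, n = 3). Its interaction was -0.50 ± 0.17 (limma, adjusted p = 0.038), opposite in sign to that of NORAD.

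The pattern of NORAD rested mostly, but not wholly, on its highest peak. At chr20:36045886-36045906 the nuclear mock libraries held 14, 16 and 13 tags and the nuclear arsenite libraries 112, 131 and 88. The cytoplasmic libraries held 73, 115 and 100 tags under mock and 127, 150 and 126 under arsenite. In CPM this was 15.8 ± 4.08, 90.2 ± 14.3, 100.1 ± 20.3 and 88.2 ± 3.24 in the same order (SD, n = 3), so nuclear mock alone stood apart. It was the only NORAD peak past the threshold of the main limma fits in any of the 5 comparisons tested peak by peak, while some other settings, given in the last section, called more. Nuclear minus cytoplasmic under mock was -2.50 ± 0.25 on the log2 scale (limma, adjusted p = 0.0010), where 2.82% of 157168 peaks were called. Arsenite minus mock in the nuclear fraction was 2.36 ± 0.22 (limma, adjusted p = 0.0010), where 0.186% of 200232 peaks were called, and this was the 63rd highest difference. The interaction was 2.52 ± 0.25 (limma, adjusted p = 1.1e-14), where 0.352% of 334689 peaks were called. It did not pass between fractions under arsenite (0.02 ± 0.14, limma, adjusted p = 0.95, 0.257% called) or in the cytoplasm with arsenite (-0.16 ± 0.19, limma, adjusted p = 0.76, 0.76% called).

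Of these 3 calls, 2 were lost when single libraries were left out, while the interaction kept its call without each of the 12 (limma, adjusted p of 3.9e-11 to 0.00035). Without nuclear mock library 1, nuclear arsenite library 1 or nuclear arsenite library 2, the nuclear arsenite difference of the NORAD peak was 2.54, 2.36 or 2.25 with an adjusted p by limma of 0.12, 0.13 or 0.14. Without cytoplasmic mock library 2 or 3, the mock fraction difference was -2.38 or -2.45 with an adjusted p of 0.075 or 0.076. The size of the difference changed little in each case.

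The sum of the 12 other NORAD peaks showed the same fraction difference and nuclear rise, but it fell in the cytoplasm with arsenite. Summed without the highest peak, NORAD stood at 12.3 ± 3.37 CPM in nuclear mock, 34.7 ± 4.63 in nuclear arsenite, 41.1 ± 7.24 in cytoplasmic mock and 23.2 ± 1.21 in cytoplasmic arsenite (SD, n = 3). The fit of these sums was chosen after the data were seen and left out the highest peak of NORAD and of OIP5-AS1. In it, nuclear minus cytoplasmic under mock was -1.59 ± 0.24 for NORAD (limma, adjusted p = 0.00014) and the nuclear rise with arsenite 1.37 ± 0.23 (limma, adjusted p = 0.00048). The cytoplasmic change with arsenite was -0.76 ± 0.18 (limma, adjusted p = 0.0088), a call that the sum over all peaks did not give. The interaction without the highest peak was 2.12 ± 0.30 (limma, adjusted p = 5.2e-07).

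The share of NORAD tags in its highest peak was 48.5% to 70.0% in the nuclear mock libraries (mean 56.2%), 69.1% to 76.6% in nuclear arsenite, 68.5% to 74.2% in cytoplasmic mock and 78.9% to 79.7% in cytoplasmic arsenite. In the cytoplasm the arsenite libraries all lay above the mock libraries, by 8.46 percentage points on average. A two-sided exact permutation test over these libraries gave p = 0.10, the smallest that 3 against 3 allows, and 0.20 after Benjamini-Hochberg adjustment over the 4 pairs of groups compared, of which none passed.

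None of the smaller NORAD peaks passed in the main limma fits, and their levels did not follow 1 order. The peak at chr20:36049671-36049691 held 1, 1 and 2 tags in nuclear mock, 8, 12 and 13 in nuclear arsenite, 4, 3 and 5 in cytoplasmic mock and 12, 9 and 10 in cytoplasmic arsenite. In the nuclear fraction the arsenite libraries lay above the mock libraries, while in the cytoplasm the groups overlapped in CPM, at 3.06 to 5.27 under mock and 5.12 to 8.66 with arsenite. Its nuclear arsenite difference was 1.60 ± 0.31 (limma, adjusted p = 0.080), and edgeR's quasi-likelihood test on whole tags gave 2.58 with an adjusted p of 0.035. The peak at chr20:36049504-36049524 held 1, 3 and 1 tags in nuclear mock, 7, 7 and 4 in nuclear arsenite, 5, 5 and 4 in cytoplasmic mock and 1, 3 and 2 in cytoplasmic arsenite. Its interaction was 1.87 ± 0.51 (limma, adjusted p = 0.084). The peak at chr20:36046405-36046425 was highest in cytoplasmic mock, with 4, 8 and 8 tags. In CPM this was 4.25 to 8.44, without overlap with 2.09 to 3.41 in cytoplasmic arsenite, 0.87 to 2.402 in nuclear arsenite or 1.46 to 1.93 in nuclear mock. The peak at chr20:36049370-36049390 held 0 to 7 tags in each of the 12 libraries with all groups overlapping. Across the 13 NORAD peaks the interaction was positive in 13, with a median of 0.94 on the log2 scale beside -0.08 over all peaks tested, and 1 was called. In the nuclear fraction 12 were tested with arsenite, 11 were positive and the median was 0.57, beside 0.01 over all peaks.

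**Figure D2:**
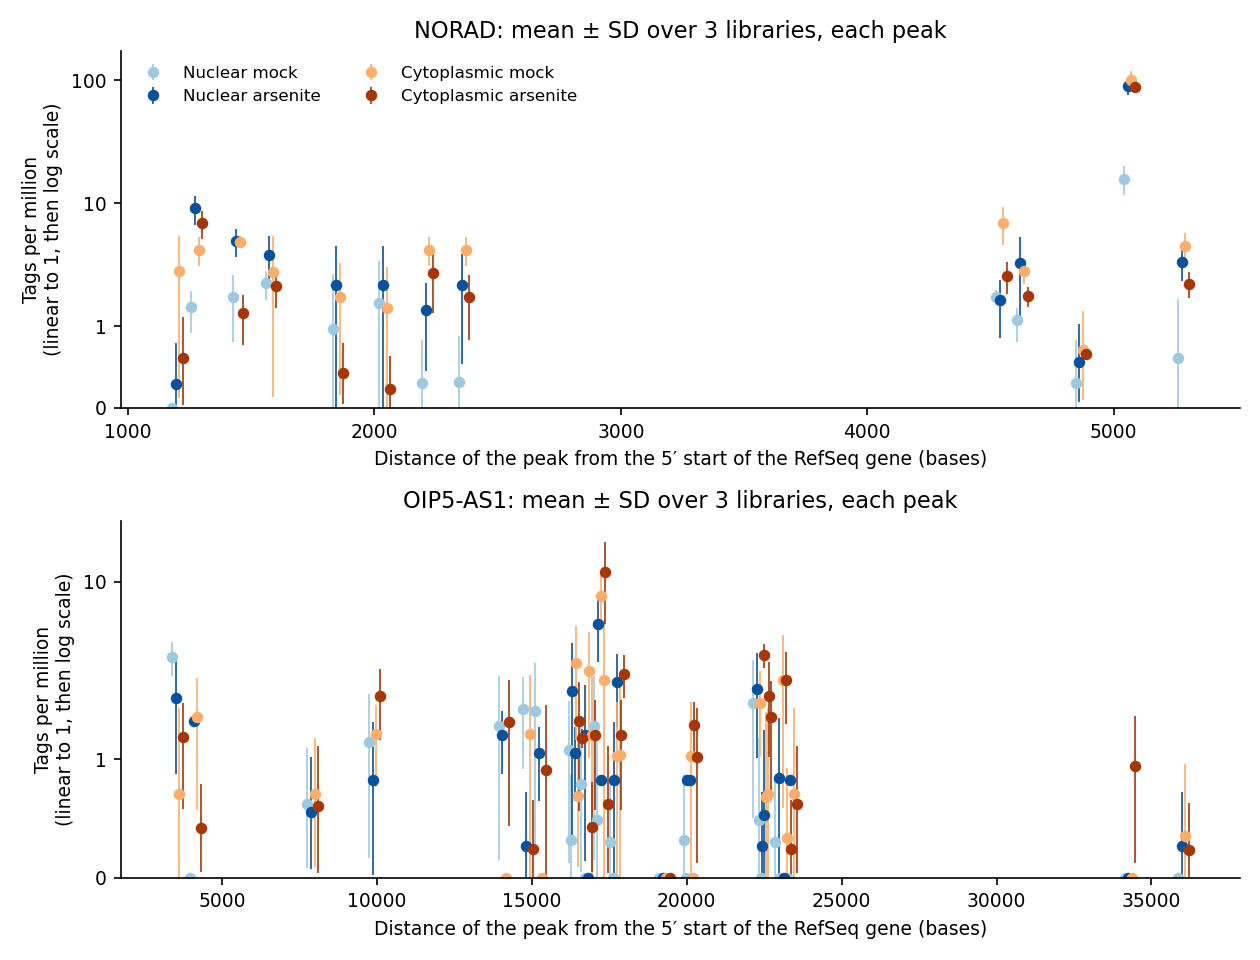
Each peak is drawn at its distance in bases from the 5′ start of the RefSeq gene, with the mean and SD of CPM over 3 libraries for each fraction group on an axis that is linear up to 1 and logarithmic above it (the 4 groups are shifted slightly sideways so that they can be told apart). The NORAD peak 5064 bases from the start stands at 88.2 to 100.1 in the other 3 groups and at 15.8 in nuclear mock, and no NORAD peak lies between 2364 and 4545 bases; the highest OIP5-AS1 peak is 17181 bases from the start.

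OIP5-AS1 carried HuR tags over a much longer stretch, with no peak that dominated. It (ENSG00000247556, a lncRNA on the plus strand) spans chr15:41282697-41313338 in RefSeq, 30642 bases. All 26 peaks carried both an intron and a lncRNA annotation in the deposited table, so tags in unspliced and spliced OIP5-AS1 could not be separated. Of these, 24 lay inside the RefSeq gene, and those at 41316990 and 41318727 lay beyond its end. A stretch of 8 peaks at chr15:41299054-41300505 held 230 of its 471 fraction tags (48.8%), and 6 peaks at chr15:41305005-41306102 held 100 (21.2%). The highest peak, at chr15:41299868-41299888, held 104 tags (22.1%), and the next, at chr15:41305005-41305025, held 39 (8.28%). The 3 peaks nearest the 5′ start also carried a downstream 10K annotation (within 10K downstream of a gene). Whether their tags came from OIP5-AS1 or from a neighbouring gene was not tested.

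OIP5-AS1 was also higher in the cytoplasmic than in the nuclear fraction of resting cells, by less than NORAD, and its change with arsenite did not pass the test in either fraction. Summed over its peaks it stood at 13.1, 20.002 and 23.2 CPM in nuclear mock, and at 32.97, 37.7 and 39.0 in cytoplasmic mock. After arsenite the nuclear libraries held 32.0, 24.8 and 32.92 and the cytoplasmic libraries 46.9, 47.8 and 36.9. The cytoplasmic libraries lay above the nuclear ones under both treatments without overlap. The order of the means was cytoplasmic arsenite (43.8 ± 6.06, SD, n = 3), cytoplasmic mock (36.6 ± 3.17), nuclear arsenite (29.9 ± 4.45) and nuclear mock (18.8 ± 5.14). The first 2 of these overlapped, and the highest nuclear arsenite library (32.92) came just under the lowest cytoplasmic mock library (32.97).

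For OIP5-AS1 nuclear minus cytoplasmic under mock was -0.91 ± 0.23 on the log2 scale (limma, adjusted p = 0.0065), a 1.95-fold ratio of means. The call was lost without cytoplasmic mock library 2 or 3, and the adjusted p over the single libraries left out ran from 0.0077 to 0.067, with differences of -1.06 to -0.70. Under arsenite the difference was -0.52 ± 0.17 with an adjusted p of 0.053 by limma, just outside the threshold. edgeR on whole tags gave -0.56 with an adjusted p of 0.035. The limma fit with same-numbered libraries as blocks gave an adjusted p of 0.023, and limma without the filter on tested genes also called it. Arsenite minus mock was 0.63 ± 0.22 in the nuclear fraction (limma, adjusted p = 0.093) and 0.24 ± 0.17 in the cytoplasmic fraction (limma, adjusted p = 0.36). The interaction was 0.39 ± 0.29 (limma, adjusted p = 0.43), where NORAD had 2.38.

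None of the OIP5-AS1 peaks passed the threshold of limma in any of the 5 peak-level comparisons, in which 14 to 23 of the 26 had enough tags to be tested. An unadjusted p under 0.05 (limma) was held by 4 of 14 between mock fractions (30826 of 157168 over all peaks) and 4 of 21 between arsenite fractions (27466 of 236332). With arsenite it was 6 of 19 in the nucleus (22471 of 200232) and 2 of 20 in the cytoplasm (36985 of 193897). For the interaction it was 2 of 23 (31036 of 334689). edgeR called 0 of the OIP5-AS1 peaks as well, while some other settings, given in the last section, called peaks of this gene. Its highest peak held 0, 3 and 2 tags in nuclear mock, 9, 4 and 8 in nuclear arsenite, 5, 10 and 9 in cytoplasmic mock and 11, 31 and 12 in cytoplasmic arsenite. The nuclear mock libraries were the lowest, and cytoplasmic arsenite library 2 the highest. Nuclear minus cytoplasmic under mock was -1.51 ± 0.38 at this peak (limma, adjusted p = 0.072). Over the alternative settings that kept all libraries, its adjusted p by limma or edgeR ran from 0.019 to 0.077. The most upstream OIP5-AS1 peak ran the other way, with 2, 5 and 4 tags in nuclear mock and 2, 0 and 0 in cytoplasmic mock. This peak, at chr15:41286244-41286264, gave 1.08 ± 0.35 (limma, adjusted p = 0.093) and was among those that also carried a downstream 10K annotation. The peak at chr15:41300485-41300505 held no tag in the nuclear mock libraries and 5, 2 and 3 in nuclear arsenite, with 1.11 ± 0.31 (limma, adjusted p = 0.21). The peak at 41299054 held 0 to 6 tags in a library, with all groups overlapping in CPM. The peak at 41305005 held 1 to 8, and its cytoplasmic arsenite libraries (3.48 to 4.55 CPM) lay above those of cytoplasmic mock (1.06 to 3.16) and just above those of nuclear arsenite (0.80 to 3.47), while nuclear mock (0.91 to 3.86) overlapped all of them. A peak of so few tags that misses the threshold is not shown to be unchanged.

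Along OIP5-AS1 the stretches differed in level. The 8-peak stretch stood at 4.58 ± 0.23 CPM in nuclear mock, 15.1 ± 2.85 in nuclear arsenite, 21.9 ± 3.37 in cytoplasmic mock and 21.1 ± 6.09 in cytoplasmic arsenite (SD, n = 3), so nuclear mock lay below all others. The 6-peak stretch stood at 2.87 ± 1.02, 4.96 ± 1.04, 7.32 ± 1.04 and 11.6 ± 1.66 in the same order. The 2 peaks nearest the 5′ start stood at 3.77 ± 0.82, 3.87 ± 1.40, 2.43 ± 1.20 and 1.75 ± 0.39, where the groups did not follow the order of the gene as a whole. These stretches were drawn after the positions were seen and were not tested. The peak at chr15:41301972-41301992, singled out after its values were seen, had no tag in any of the 12 fraction libraries, and 11 in the inputs and enriched libraries, 6 of them in 2 G3BP enriched arsenite libraries. This peak also carried the annotation Other.

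**Figure D3:**
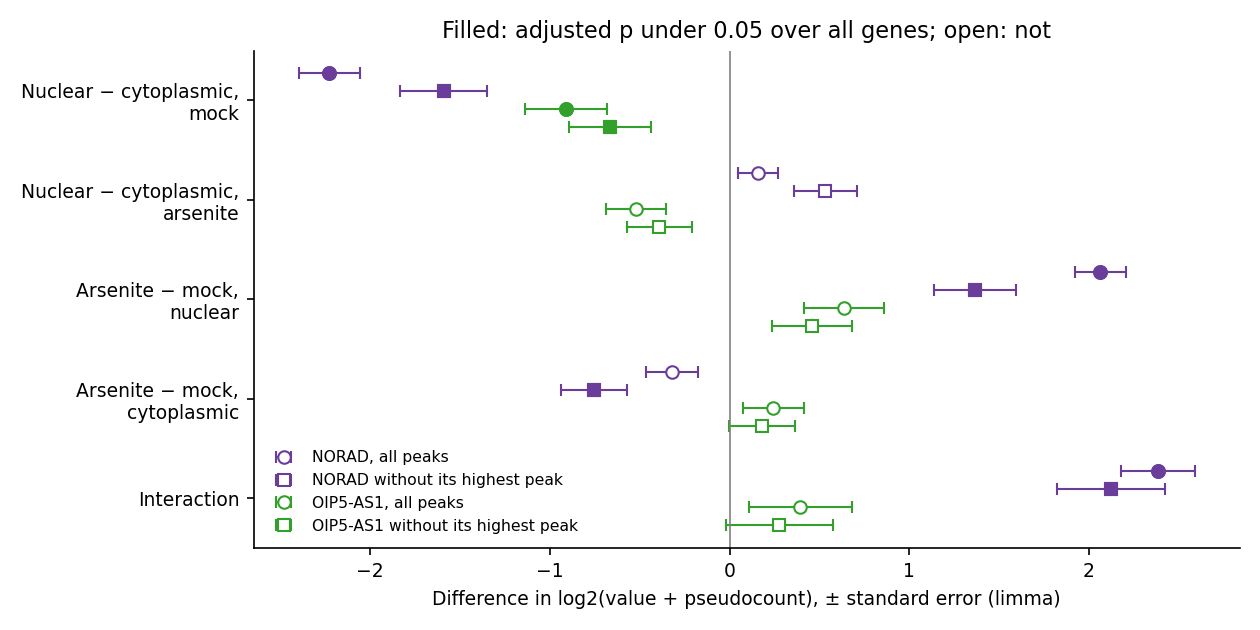
The points are limma differences on the log2 scale with their standard errors for 5 fraction comparisons, over all peaks of a gene (circles) and without its highest peak (squares), filled where the adjusted p over all genes is under 0.05. NORAD passes at -2.23, 2.06 and 2.38 for the mock fraction difference, the nuclear response and the interaction, and OIP5-AS1 passes only for the mock fraction difference (-0.91).

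The genes listed as partners of NORAD are messages of proteins that act with it, among them the Pumilio protein PUM2 and members of a nuclear complex described around it. All 7 described here had HuR tags. In the nuclear fraction with arsenite 2 of 7 rose, where 5.57% of all genes tested did: ALYREF, an mRNA export adaptor, by 1.10 ± 0.15 on the log2 scale (limma, adjusted p = 6.7e-05) and TOP1, a topoisomerase, by 0.55 ± 0.12 (adjusted p = 0.0078). The median of these 7 was 0.059 there, beside 0.04 over all genes tested. ALYREF was also lower in the nuclear than in the cytoplasmic fraction under mock, by -2.85 ± 0.16, and had an interaction of 2.17 ± 0.21 (limma, adjusted p = 2.9e-11). Under mock 3 of the 7 were lower in the nuclear fraction (ALYREF, the splicing factor genes RBMX at -1.08 and PRPF19 at -1.05) and PUM2 was higher, at 0.38 ± 0.14 (limma, adjusted p = 0.047), where 18.3% of all genes tested were lower and 13.8% higher. In the cytoplasm with arsenite PUM2 and TOP1 rose and ALYREF fell, where 10.2% of genes rose and 9.91% fell. PUM2 went from 102.2 ± 10.0 to 144.7 ± 4.67 CPM (SD, n = 3). KHDRBS1, CDC5L, RBMX and PRPF19 passed in neither response to arsenite. After arsenite 3 of the 7 were lower in the nuclear than in the cytoplasmic fraction, where 5.51% of genes were: CDC5L at -0.88 ± 0.25 (limma, adjusted p = 0.030), RBMX at -0.75 ± 0.18 (adjusted p = 0.0069) and ALYREF at -0.68 ± 0.13 (adjusted p = 0.00052).

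The list around OIP5-AS1 held OIP5, ELAVL1, HNRNPK and CDR1-AS, of which CDR1-AS, a circular RNA with many miR-7 sites, had no peak under its name. The HuR message ELAVL1 stood at 18.4 ± 4.51 CPM in nuclear mock, 40.7 ± 3.08 in nuclear arsenite, 56.9 ± 15.6 in cytoplasmic mock and 43.5 ± 3.04 in cytoplasmic arsenite. Its rise in the nuclear fraction was 1.08 ± 0.20 (limma, adjusted p = 0.0014). HNRNPK, which encodes an RNA-binding protein, rose there by 0.95 ± 0.13 (limma, adjusted p = 5.4e-05). Of the 3 genes tested, 2 rose there, where 5.57% of all genes did. Under mock 2 of the 3 were lower in the nuclear fraction, where 18.3% of genes were. After arsenite 1 of the 3 was lower there, where 5.51% of genes were. The interaction was called and positive for 2 of the 3, as for 1018 of 12629 genes. OIP5, the gene on the opposite strand, stood at means of 3.499 to 5.76 CPM in the 4 groups and passed in none of the 5 comparisons.

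Across the 12 fraction libraries the level of GATAD2A (Pearson r = 0.991) and IRF2BP2 (0.985) followed NORAD most closely, of 3161 genes with a mean of at least 20 CPM. GATAD2A stood at 65.8 ± 6.58 in nuclear mock and at 204.7 ± 13.4, 221.8 ± 32.1 and 181.7 ± 13.0 in nuclear arsenite, cytoplasmic mock and cytoplasmic arsenite. For OIP5-AS1 the closest were FDFT1 (0.935), USP46 (0.931) and LINC01509 (0.930). These values describe 12 libraries that share their fraction and treatment, so they carry no test.

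In the inputs of the APEX lines, NORAD was again higher with arsenite, although the test over all inputs did not pass. The 9 arsenite inputs ran from 12.9 to 76.7 CPM with a median of 49.8, and the 8 mock inputs from 0 to 30.0 with a median of 14.02, of which 3 had no NORAD tag. In the G3BP line the arsenite inputs held 58.6, 48.7, 44.7, 61.5 and 49.8, and the mock inputs 0, 19.0, 16.99 and 0. The values did not overlap, but 1 tag was worth 50.6 and 44.5 CPM in the mock inputs at 0, which could not show a level in that range, and the value of 58.6 was 1 tag. In the NLS line the values were 19.8 and 11.1 under mock and 58.4 and 12.9 with arsenite, and in the NES line 30.0 and 0 under mock and 76.7 and 32.6 with arsenite. The limma difference with cell line and library set as covariates was 2.39 ± 0.66, the 5th highest of 7458 genes, with an unadjusted p of 0.00058 and an adjusted p of 0.41. No gene was called in that comparison (0% of genes), 678 had an unadjusted p under 0.05, and edgeR called 420 genes, with NORAD at 1.38 and an adjusted p of 0.00059. Fits within single library sets were not planned. Within library set JL0388, which held the deepest inputs, the NORAD difference was 1.49 ± 0.20 (limma, adjusted p = 6.4e-06). Within JL0361 and JL1024 it was 2.92 ± 1.83 and 2.88 ± 1.33, with adjusted p of 0.63 and 0.78.

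OIP5-AS1 in the inputs ran from 0 to 14.4 CPM under mock and from 0 to 31.8 with arsenite, with medians of 5.25 and 7.42. Its difference was 0.73 ± 0.59 (limma, adjusted p = 0.68), and it was 0.99, 0.54 and 0.70 within library sets JL0361, JL0388 and JL1024, none past the threshold.

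**Figure D4:**
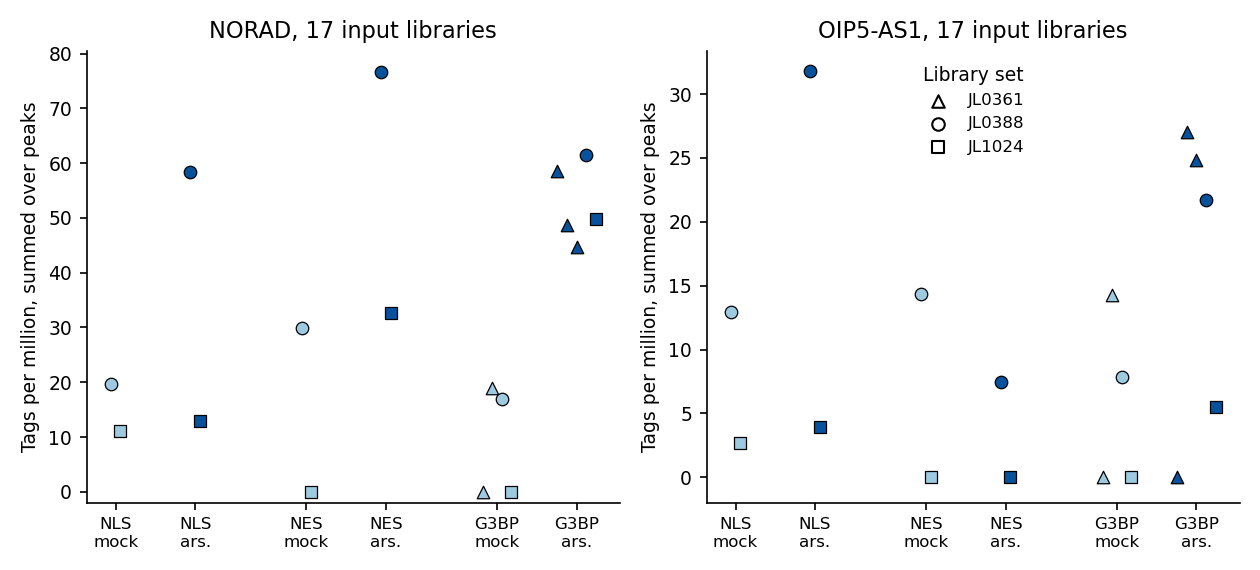
Each symbol is 1 of the 17 input libraries, placed by APEX line and treatment, with its shape giving the library set and CPM summed over the gene's peaks on the vertical axis. For NORAD every library set has its arsenite value above its mock value within each line it covers, the smallest step being 11.1 to 12.9 in the NLS line of JL1024, and for OIP5-AS1 the groups overlap.

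After capture of biotinylated protein, tags of both RNAs were few. The 29 enriched libraries held 133 NORAD tags and 40 OIP5-AS1 tags, and 6 and 15 of them held none. Pooled over its libraries, NORAD stood at 45.0 CPM in G3BP enriched arsenite (95% Poisson interval 34.8 to 57.4, counting error only) and at 19.9 (13.3 to 28.6) in G3BP enriched mock. In NES enriched it was 13.8 (7.87 to 22.4) with arsenite and 6.49 (0.79 to 23.5) under mock, and in NLS enriched 10.3 (5.33 to 18.01) and 6.64 (3.04 to 12.6). Single libraries moved some of these: NES enriched arsenite was at 7.37 without library 2, which held 8 of its 16 tags, and at 25.1 without library 4, NES enriched mock (2 tags) ran from 3.70 to 10.3 with each library left out, and NLS enriched arsenite was at 17.2 without library 3. G3BP enriched arsenite was at 31.8 without library 4, which held 22 of its 65 tags, and at 41.7 without library 5. These 2 libraries counted as 1 sample, and the level without both was not computed. The spread between libraries was wide: the 7 G3BP enriched arsenite libraries ran from 0 to 248.0 with a median of 29.9, and the highest 2 values, 248.0 and 213.8, were a pair that counted as 1 sample.

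**Figure D5:**
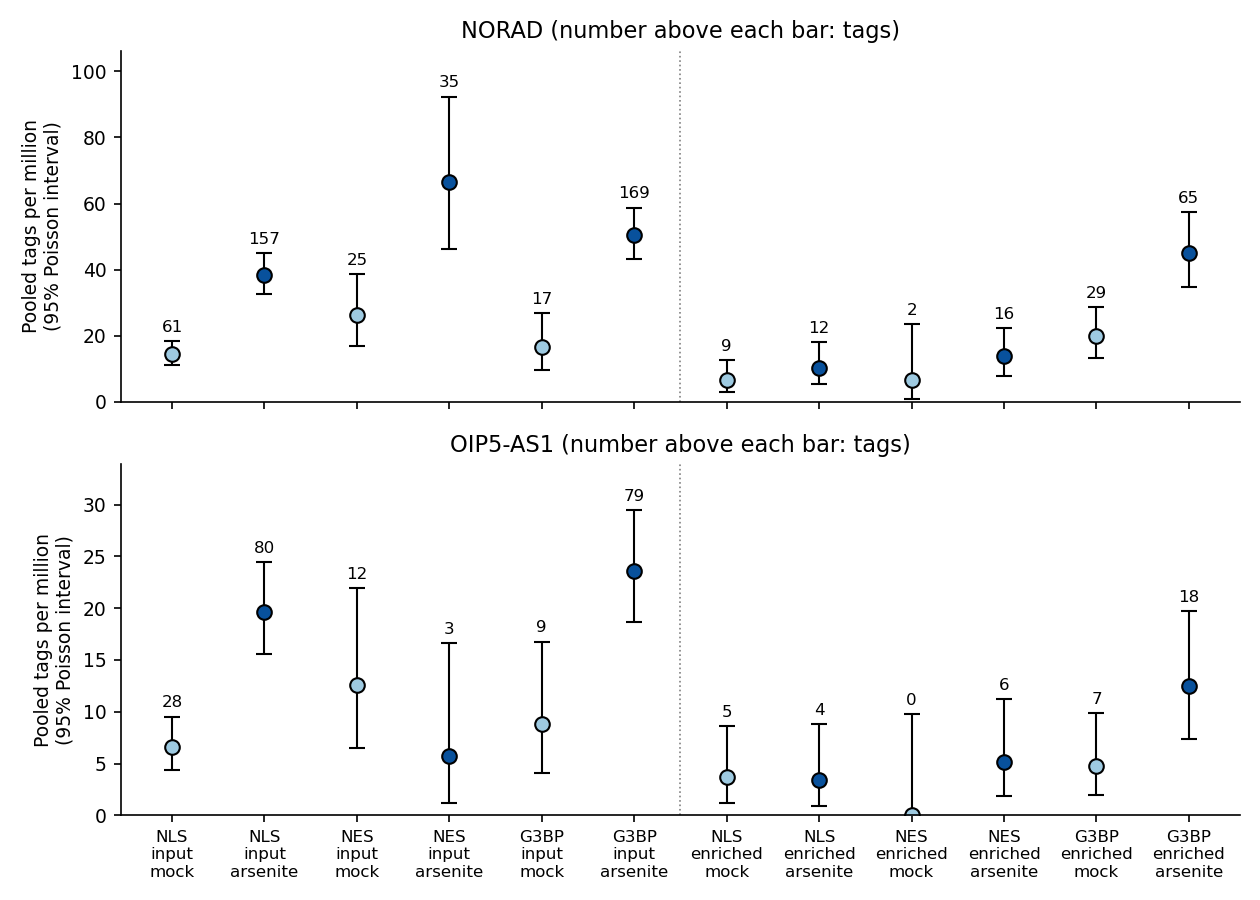
The points are CPM pooled over the libraries of each input and enriched group, the bars are 95% Poisson intervals (for the group without a tag, the limit that 3 tags would give), and the numbers are tags. NORAD is at 45.0 in G3BP enriched arsenite and between 6.49 and 19.9 in the 5 other enriched groups, and OIP5-AS1 rests on 0 to 18 tags in each enriched group.

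In the fits with library set as a covariate, neither RNA passed the threshold of limma in any comparison of enriched libraries. With arsenite, G3BP minus NES enriched was 1.67 ± 0.79 for NORAD (unadjusted p = 0.038, adjusted p = 0.21), where 3.67% of 2510 genes were called and the median of all genes was itself 0.98, and 2.07 and 1.27 within library sets JL0388 and JL1024. In JL0388 each side was a pair of libraries counted above as 1 sample. Without its highest peak the NORAD value over both sets was 0.03 ± 1.06. Under mock it was 1.55 ± 1.62 (limma, adjusted p = 0.97) and no gene was called (0% of 1707, with 87 at an unadjusted p under 0.05 and 6 called by edgeR). Within JL1024 the NORAD value was 3.29 ± 0.34 (limma, adjusted p = 0.017), where both NES libraries had no NORAD tag, and within JL0388 it was -0.18 ± 3.13. NLS minus NES enriched was -0.18 ± 1.00 for NORAD under mock (18.1% of genes called, each of them higher in NLS) and -0.52 ± 0.73 with arsenite (6.6% called, each higher in NLS), and the limma adjusted p was 0.91 and 0.68. The median of all genes in these 2 comparisons was 1.09 and 0.88, and with differences centred on that median the NORAD values were -1.27 and -1.40 (limma, adjusted p = 0.63 and 0.37), and 0.70 for G3BP minus NES with arsenite (adjusted p = 0.84). MALAT1 was higher in NLS than in NES enriched libraries under both treatments, by 1.11 ± 0.23 (limma, adjusted p = 0.021) and 2.08 ± 0.38 (adjusted p = 0.018), of which the value under mock was close to that of the median gene.

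Arsenite minus mock was 1.11 ± 0.74 in NLS, 1.44 ± 0.86 in NES and 1.31 ± 1.14 in G3BP enriched libraries for NORAD, with limma adjusted p of 0.77, 0.85 and 0.61, beside a median over all genes of 0.12, 0.28 and 0.77. In these 3 comparisons limma called 0% of genes, with 306, 97 and 317 at an unadjusted p under 0.05, and edgeR called 3, 0 and 62. The G3BP value for NORAD turned to -1.04 with the 6 libraries of at least 10000 tags alone. Enriched minus input was -1.22 ± 0.53 in the NLS line (limma, adjusted p = 0.24, 1.13% of genes called), -0.76 ± 0.78 in NES (0.48, 15.7% called) and -0.07 ± 0.87 in G3BP (0.96, 3.03% called). The shift of all genes in these 3 comparisons was itself negative, at a median of -0.43, -1.20 and -0.80, so NORAD lay below the median gene in NLS and above it in NES and G3BP.

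OIP5-AS1 was too rare in the enriched libraries to order the compartments. NES enriched mock held no tag in 308019, which allows up to 9.74 CPM, and the gene did not reach the test in NLS against NES under mock, in G3BP against NES under mock or in NES with arsenite. Where it was tested, its limma differences were -0.71 ± 0.84 for NLS minus NES with arsenite, -0.94 ± 1.21 for G3BP minus NES with arsenite, 0.22 ± 0.76 and -0.30 ± 0.92 for arsenite minus mock in NLS and G3BP, and -1.01 ± 0.56, -0.19 ± 0.75 and -0.31 ± 0.72 for enriched minus input in NLS, NES and G3BP. Adjusted p-values by limma were 0.35 or more. Several of these changed sign with a single library or setting, so no direction is given for OIP5-AS1 in the labelled compartments.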

How the data were processed

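Per the submitters' processing notes, Bowtie2, SAMtools, bedtools and HOMER were used with GRCh38.p14; their versions and roles were not given in the sources used here. The deposited table gives 1 signal value per peak and library, read from its values as tag counts divided by a library total; how the authors set that total is not stated. Values were whole multiples of the value of 1 tag for 100% of entries (tolerance 0.1 tag), so tags were recovered; levels are given as CPM, tags per 1000000 of that total. Whether coordinates count from 0 or 1 is not stated. Of 395471 lines, 8257 repeated a peak and were dropped. Peaks with 1 gene name were summed per gene (13836 genes), and 84358 peaks have no name.

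Differences were fitted with limma 3.58.1 (R 4.3.3; lmFit and eBayes with trend) on log2(value + 2.28 CPM), the median over libraries of the smallest value above 0; fold changes of low features are understated on that scale. A feature was tested where the number of libraries with a value above 0 reached the size of the smaller group. A feature is called where the Benjamini-Hochberg adjusted p over all features tested is under 0.05. Fraction comparisons used the libraries of the 2 groups, and the interaction all 12. Library set (and line, for the inputs) was a covariate elsewhere. edgeR 4.0.16 (quasi-likelihood) ran on whole tags as an alternative. The fits were tested on simulated data. Intervals are exact Poisson at 95% and, like the limit of 3 tags, cover counting error only. The members, lists, named peaks (the 5 with the most fraction tags per gene, and up to 3 called per comparison) and tests were chosen with earlier results of these data known. The motif search, the miR-7 site and the share of intron tags were not analysed here. A gene of the list around NORAD, and a gene of those with a level most like it, are not reported here.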

Additional observations from a re-analysis of the deposited data

Results flagged for a closer look

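The response to arsenite differed between the fractions for NORAD: the interaction was 2.38 on the log2 scale over all its peaks (limma, adjusted p = 1.4e-12) and 2.52 at its highest peak (limma, adjusted p = 1.1e-14). In 3 of 3 nuclear arsenite libraries the NORAD level was above the 3 nuclear mock libraries.

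Among the 8 groups of 4 to 7 libraries, the highest and lowest value of each gene were compared with the rest in 15 sets of values (1 gene in 1 group), and 4 values stood far above their group. The rule marks about 1 in 20 by chance where values are normal and equally precise. Values from libraries this unlike in depth are not, so the 4 cannot be set against that rate. NORAD was at 214.5 CPM in G3BP enriched mock library 4, which is 1 tag in a library total of 4662. OIP5-AS1 was at 158.0 CPM in G3BP enriched mock library 1, also 1 tag, in a total of 6330. It was at 56.4 CPM (5 tags) in G3BP enriched arsenite library 4 and at 14.8 (3 tags) in NLS enriched mock library 1.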

How the results depend on the processing

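Between fractions the gene-level differences kept their direction and their side of the threshold in 145 of 152 refits. The NORAD mock fraction difference, nuclear rise and interaction stayed called in all of theirs (log2 differences of -2.38 to -1.59, 1.37 to 2.16 and 2.12 to 2.54). The 7 that crossed the threshold were these. The NORAD change in the cytoplasm was -0.76 and called without the highest peak, and with single libraries left out (called without cytoplasmic mock library 1) it ran from -0.48 to -0.23. The OIP5-AS1 mock fraction difference ran from -1.06 to -0.70 with single libraries left out. The OIP5-AS1 difference under arsenite was called with edgeR (-0.56), without the filter (-0.52) and with the replicate block (-0.52, adjusted p = 0.023).

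The numbers did not pair the fraction libraries: deviations of same-numbered libraries correlated at -0.055 to 0.047 over genes. With the replicate block, 1 OIP5-AS1 peak was called in the mock fraction comparison, the G3BP difference between enriched and input was 0.051 for OIP5-AS1 and -1.01 for NORAD with 1447 genes called in place of 138, and G3BP against NES with arsenite had 51 genes called in place of 92. Beside these and the OIP5-AS1 difference between fractions under arsenite given above, it changed no call of NORAD or OIP5-AS1.

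The number of NORAD peaks called in the nuclear fraction with arsenite was 2 with edgeR or no filter and 0 to 1 with single libraries left out. Under mock between fractions it was 5 with differences centred on their median (a shift of 0.15 over all peaks), 4 with no filter and 0 to 1 with libraries left out, and for OIP5-AS1 1 with centring, 1 with no filter and 0 to 2 with libraries left out. For the interaction 2 NORAD peaks were called with a pseudocount 4 times larger. With libraries left out, 0 to 1 peaks of each gene were called in the cytoplasm with arsenite and 0 to 2 of OIP5-AS1 in the nucleus with arsenite.

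Some uncalled peaks changed sign. NORAD 36049370 was at 0.20 (cytoplasm with arsenite) and 0.26 (mock fractions) with the smaller pseudocount, and OIP5-AS1 41305005 was at 0.02 with edgeR and 0.025 scaled to tags in peaks (mock fractions). With single libraries left out the ranges were -0.54 to 0.33 and -0.50 to 0.36 for NORAD 36049370, -0.20 to 0.088 for 36046405 (nucleus with arsenite), and -0.090 to 0.13 for 36045886 (arsenite fractions). For OIP5-AS1 they were -0.060 to 0.42 (nucleus with arsenite) and -0.31 to 0.16 (mock fractions) for 41305005, -0.13 to 0.47 for 41299054 (arsenite fractions), and -0.10 to 0.53 (interaction) and -0.28 to 0.071 (arsenite fractions) for 41300485.

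In the inputs the NORAD difference was called with edgeR (1.38) and within JL0388 (1.49). Of 437 refits of input and enriched comparisons, 49 changed sign, none of them called. For NORAD, NLS minus NES under mock was 0.048 with edgeR, 0.10 with the smaller pseudocount, 0.44 with agreeing pairs counted once, 1.65 within JL1024 and -0.83 to 0.76 with libraries left out. NLS minus NES with arsenite was 0.021 without the highest peak. G3BP minus NES under mock was -0.18 within JL0388 and, called, 3.29 within JL1024. Arsenite minus mock in G3BP enriched was -1.04 with libraries of 10000 tags or more and -0.26 within JL1024. Enriched minus input in G3BP was 0.35 with edgeR, 0.016 with the larger pseudocount, 0.42 scaled to tags in peaks, 0.72 centred, 0.074 with libraries of 10000 tags or more, 1.04 within JL0388, 0.90 within JL1024 and -0.42 to 0.34 with libraries left out, and in NES it was 0.43 centred.

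For OIP5-AS1, G3BP minus NES with arsenite was 0.19 with edgeR. Arsenite minus mock was 0.15 with edgeR and -0.96 to 0.71 with libraries left out in G3BP enriched. In NLS enriched it was -0.16 with edgeR, -0.16 scaled to tags in peaks, -0.36 with agreeing pairs counted once, -0.90 within JL1024 and -0.58 to 0.58 with libraries left out. Enriched minus input in G3BP was 0.10 scaled to tags in peaks, 0.49 centred and 0.24 within JL0361. In NES it was 0.13 with edgeR, 0.30 scaled to tags in peaks, 1.01 centred, 1.21 with libraries of 10000 tags or more and -0.66 to 0.45 with libraries left out. Where a value changed, the cause was not tested. The share of tags in intron peaks and the motif windows were not run, because all 26 OIP5-AS1 peaks carry both annotations and no genome was used here. Depth limits all enriched values of OIP5-AS1, which rest on at most 7 tags in a library.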
